A study of Homo sapiens with 2 samples.

Results

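Glycolysis and the response to low oxygen were followed in PC3 cells, a human prostate cancer line derived from a metastasis in bone. One culture received 10 µM fluphenazine, an antipsychotic of the phenothiazine class, and the other received the solvent DMSO. Each treatment was measured on 1 array of RNA from the whole culture, so fewer cells expressing a gene and less RNA per cell cannot be told apart, and no source used here states the time of exposure. The gene set was a list of 37 symbols, to which every probe set whose only annotated gene is on the list was assigned. Of these genes, 35 were among the 18392 genes measured, read by 81 of 47693 probe sets (3 of them controls), and the transporter gene SLC16A3 and the carbonic anhydrase gene CA9 were not analysed here. The 35 genes comprise 16 glycolytic enzymes, 18 other hypoxia-inducible genes and HIF1A.

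Glycolysis splits glucose into pyruvate in the cytosol, and tumour cells often run it fast and reduce the pyruvate to lactate. Many of its enzymes are also induced when oxygen falls. The transcription factor HIF-1, whose oxygen-regulated subunit is encoded by HIF1A, is then no longer hydroxylated by the EGLN prolyl hydroxylases or degraded through the VHL ligase. It raises glucose uptake and glycolysis, restrains entry of pyruvate into mitochondria, and induces angiogenic factors, enzymes that control pH, collagen-modifying enzymes and its own inhibitors.

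Values are log2 signals, and a difference is the log2 signal with fluphenazine minus that with DMSO. A gene with several probe sets is given by the probe set with the highest mean signal. A gene counted as above the floor when its higher value was at least 6.19. This floor is the median over all genes of the higher value, so it marks a rank rather than detection. Since each treatment has a single array, the spread between cultures is unknown, no test was possible, and no difference below has a p-value or a standard error. As a scale of noise within the arrays, probe sets of one gene above the floor gave differences that varied with a pooled SD of 0.13. This SD was taken over 3668 genes and does not contain variation between cultures.

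By the probe set used for each gene, differences in the set were small, as they were for nearly all genes above the floor. Of 33 members above the floor, 0 were at least 1.5-fold higher and 0 at least 1.5-fold lower with fluphenazine, where 0.283% and 0.294% of all 9196 genes above the floor were. At a lower limit of 0.32 on the log2 scale, 1 member, PFKFB4, was lower by that much or more (2.58% of all genes) and 0 were higher (2.69%). The 16 glycolytic enzymes were mostly at or slightly below 0, with a median of -0.03 and a range of -0.26 to 0.21. The 16 other hypoxia-inducible genes above the floor were mostly slightly above 0, with a median of 0.10 and a range of -0.35 to 0.27. The median over all 9196 genes was -0.01.

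By direction alone, 4 of the 16 enzymes were higher with fluphenazine and 12 were lower, where 48.2% of all genes above the floor were higher and 51.8% lower. Among the other hypoxia-inducible genes, 12 of 16 were higher and 4 lower. The medians of the groups, enzymes minus others, differed by -0.13. This difference shrank to -0.04 when all probe sets of a gene, dim ones included, were averaged, which left 8 of the 16 others higher (44.7% of all genes). It was -0.14 when the median of the probe sets above the floor was taken. The direction of GAPDH, PGAM1, LDHA and MXI1, all close to 0, turned under another scaling of the arrays, and with both arrays centred on their 75th percentile 7 of 16 enzymes were higher (54.3% of all genes).

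**Figure D1:**
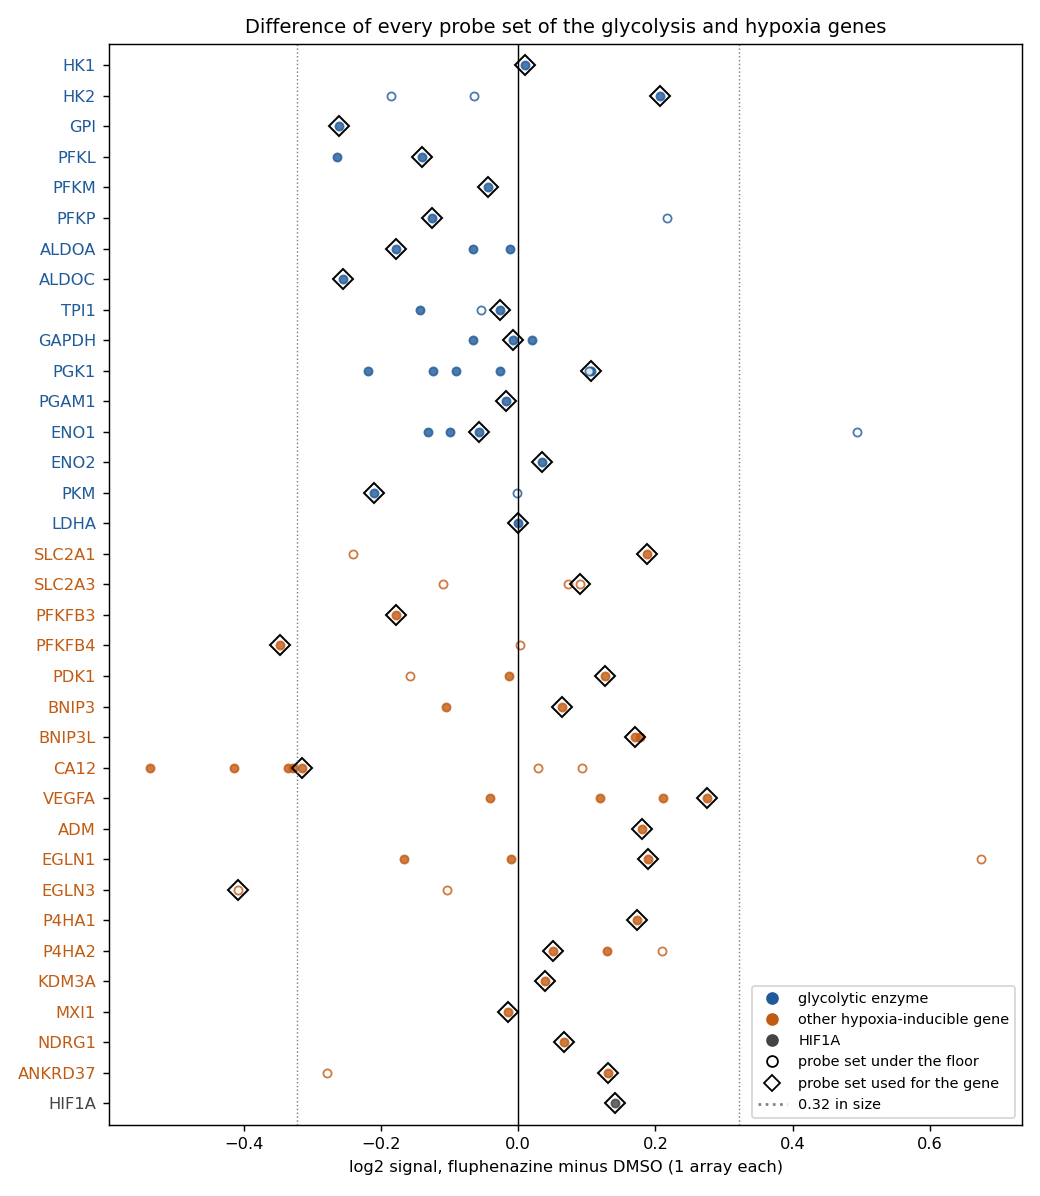
Each circle is 1 probe set of a gene of the set, placed by its log2 signal with fluphenazine minus that with DMSO, with filled circles above the floor of 6.19 and a diamond around the probe set used for the gene. The diamonds of the enzymes (blue) lie between -0.26 and 0.21, and CA12 has 5 filled circles between -0.54 and -0.31.

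**Figure D2:**
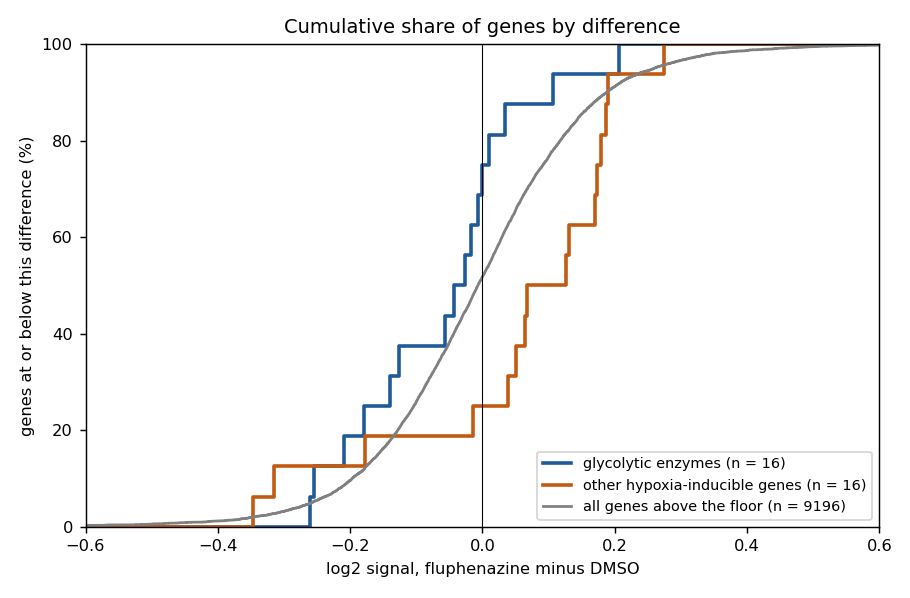
Cumulative share of genes (%) by log2 difference, fluphenazine minus DMSO, for the 16 glycolytic enzymes, the 16 other hypoxia-inducible genes above the floor and all 9196 genes above the floor. The curve of the enzymes runs left of the curve of all genes in its middle part, with a median of -0.03, and that of the other genes runs right of it there, with a median of 0.10.

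HIF binds the cores ACGTG and GCGTG of the hypoxia response element. The first was searched for on both strands (as ACGTG and CACGT) in the 250 bases before each RefSeq start site, in GRCh38.p14. A site that reads CACGTG matches on both strands and is also the E-box that factors such as MYC recognise. RefSeq windows were found for 31 of the 35 genes, and not for SLC2A3, BNIP3L, VEGFA and NDRG1. At least 1 match stood before a start site of 18 of these 31 genes (58.1%), against 2299 of 7700 genes above the floor (29.9%). The genes of the set have more start sites, with 1.84 windows per gene against 1.46, and among genes with a single window the shares were 9 of 19 (47.4%) and 1385 of 5451 (25.4%). With GCGTG counted as well, on both strands, the shares were 26 of 31 (83.9%) and 5131 of 7700 (66.6%) by gene, and 59.6% and 56% of windows. A match is a description of the sequence and not a bound site. The stretches below, chosen with the values known, show ACGTG and CACGT matches in capitals, while GCGTG cores were left unmarked. Each stretch precedes a RefSeq start site, the one with the most matches where a gene has several. Those of HK2 and GPI lie inside the gene, whose first base is chr2:74834127 for HK2 and chr19:34359718 for GPI. The genes were higher (HK2, P4HA1, ANKRD37), level (LDHA) and lower (GPI, ALDOC) with fluphenazine.
HK2: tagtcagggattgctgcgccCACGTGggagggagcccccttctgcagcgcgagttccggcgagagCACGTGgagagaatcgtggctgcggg
P4HA1: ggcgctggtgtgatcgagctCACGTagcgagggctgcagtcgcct
ANKRD37: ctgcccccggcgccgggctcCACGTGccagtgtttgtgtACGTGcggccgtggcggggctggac
LDHA: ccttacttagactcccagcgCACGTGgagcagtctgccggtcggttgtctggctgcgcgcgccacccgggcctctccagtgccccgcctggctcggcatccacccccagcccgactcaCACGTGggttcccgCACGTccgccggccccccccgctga
GPI: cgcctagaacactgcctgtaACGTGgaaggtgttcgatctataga
ALDOC: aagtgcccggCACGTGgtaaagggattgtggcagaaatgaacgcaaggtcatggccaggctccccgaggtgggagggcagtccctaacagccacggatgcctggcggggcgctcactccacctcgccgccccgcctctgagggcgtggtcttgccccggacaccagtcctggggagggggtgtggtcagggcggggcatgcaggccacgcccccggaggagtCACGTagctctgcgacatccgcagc

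These stretches lie at chr2:74834956-74835046 on the plus strand for HK2, chr10:73096928-73096972 on the minus strand for P4HA1 and chr4:185396659-185396722 on the plus strand for ANKRD37. Those of LDHA and GPI are chr11:18394358-18394514 and chr19:34364810-34364854 on the plus strand, and that of ALDOC is chr17:28576899-28577145 on the minus strand. The 18 genes of the set with a match had a median difference of 0.00, with 8 higher and 10 lower. The 12 above the floor without a match also had a median of 0.00, with 6 higher and 6 lower. LDHA, with 2 complete CACGTG sites and a further CACGT, had 13.92 log2 signal with fluphenazine and 13.92 with DMSO.

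Glucose is trapped in the cell by hexokinases. HK2, the hypoxia-inducible isozyme, had a log2 signal of 10.64 with fluphenazine and 10.44 with DMSO, a difference of 0.21. Its other 2 probe sets lay under the floor and gave -0.06 and -0.18. HK1, the widely expressed isozyme, had 10.64 with fluphenazine and 10.63 with DMSO. The difference of HK2 thus rests on 1 probe set, and HK1 was level.

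GPI, which turns glucose 6-phosphate into fructose 6-phosphate, had the largest negative difference of the enzymes, at 9.95 with fluphenazine and 10.22 with DMSO (-0.26). Only 1 probe set reads it. Phosphofructokinase, which commits the sugar to glycolysis, is assembled from 3 subunit types, and all were lower. The liver type PFKL had 8.11 with fluphenazine and 8.25 with DMSO (-0.14), and its second probe set differed further, by -0.26. The platelet type PFKP differed by -0.13 and the muscle type PFKM by -0.04. For PFKP another probe set, under the floor, gave 0.22, and the mean of both was 0.05.

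Aldolase cleaves the doubly phosphorylated sugar. ALDOC, the brain isozyme, had 8.71 with fluphenazine and 8.97 with DMSO (-0.26), read by 1 probe set. ALDOA, the main form of muscle and of most tumour lines, had 12.69 with fluphenazine and 12.87 with DMSO (-0.18), and its 3 probe sets were all lower, at -0.18, -0.07 and -0.01. TPI1, which interconverts the triose products, differed by -0.03 and by -0.14 in its 2 probe sets above the floor. Both aldolase genes were thus lower, and TPI1 was lower by an amount that depended on the probe set.

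The second stage of the pathway yields ATP. GAPDH, the dehydrogenase often used as a loading standard, had 13.54 with fluphenazine and 13.55 with DMSO (-0.01), and its 3 probe sets ranged from -0.07 to 0.02. The array also carries 3 GAPDH control probe sets along the transcript, which differed by 0.06 at the 5' end, -0.02 in the middle and 0.03 at the 3' end. The excess of the 3' over the 5' control was 0.50 with fluphenazine and 0.53 with DMSO. GAPDH was thus close to level at every position read. In the ACTB control, the same excess was 2.25 with fluphenazine and 2.12 with DMSO. Per the labels the RNA was labelled with a kit intended for whole-transcript arrays, while these probe sets lie towards 3' ends, and the sources do not describe the pairing.

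PGK1, the first ATP-forming kinase, showed how far a result can rest on the choice of probe set. The one with the highest signal had 13.67 with fluphenazine and 13.56 with DMSO (0.11), while the other 4 above the floor were all lower, at -0.22 to -0.03. The median of the 5 was -0.09. PGAM1, the mutase, differed by -0.02. ENO1, the main enolase, differed by -0.06, with its 3 probe sets above the floor between -0.13 and -0.06. Another ENO1 probe set lay under the floor at 3.74 with fluphenazine and 3.24 with DMSO (0.49), and the mean over all its probe sets was 0.05. The neuronal enolase ENO2 differed by 0.03.

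PKM, the last kinase of the pathway, had 8.62 with fluphenazine and 8.83 with DMSO (-0.21), and its dim second probe set gave 0.00. LDHA, which makes lactate, was level as given above. Over all 28 probe sets of the enzymes above the floor, 23 were lower and 5 higher (17.9%), with a median of -0.07, where 47.2% of the 14662 probe sets above the floor were higher and their median was -0.01. Of the 28, 0 differed by 0.32 or more in size, as 5.85% of all probe sets above the floor did. Several probe sets of one gene read the same RNA and are not independent, and many glycolytic genes have near-identical pseudogenes, so probe sets with the suffix _x_at, which may cross-hybridise, are uncertain. All probe sets of ALDOA and GAPDH used here were of that kind, apart from the controls.

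Glucose entry and the branch points of the pathway went both ways. SLC2A1, the glucose transporter GLUT1, had 9.51 with fluphenazine and 9.32 with DMSO (0.19), whereas its other probe set, under the floor, gave -0.24. SLC2A3, the high-affinity transporter GLUT3, lay under the floor at 3.69 with fluphenazine and 3.60 with DMSO. PFKFB3 and PFKFB4 make and remove fructose 2,6-bisphosphate, the activator of phosphofructokinase, and both were lower. PFKFB4 had 9.35 with fluphenazine and 9.70 with DMSO, a difference of -0.35 or 1.27-fold, and PFKFB3 had 7.45 with fluphenazine and 7.63 with DMSO (-0.18). A second probe set of PFKFB4 lay under the floor and gave 0.00. PDK1, which switches off pyruvate dehydrogenase, had 9.46 with fluphenazine and 9.33 with DMSO (0.13), and its second probe set above the floor gave -0.01.

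CA12, a membrane carbonic anhydrase that helps cells to dispose of acid, had the lowest median difference of the genes of the set with several probe sets above the floor. Its 5 probe sets above the floor had 8.65, 8.55, 8.48, 7.21 and 6.38 with fluphenazine, against 8.96, 8.88, 8.89, 7.75 and 6.71 with DMSO. All 5 were lower with fluphenazine, with differences of -0.54 to -0.31 and a median of -0.34. The other 2 probe sets lay under the floor at 4.49 and 4.37 with fluphenazine and 4.40 and 4.34 with DMSO. Of the 103 genes that had 5 or more probe sets above the floor, 15 had all of them lower, and CA12 had the third lowest median. CA12 was singled out after its values were seen. By the probe set with the highest signal it lay just inside the limit of 0.32, at -0.31 (1.24-fold), and the other 4 lay beyond it.

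**Figure D3:**
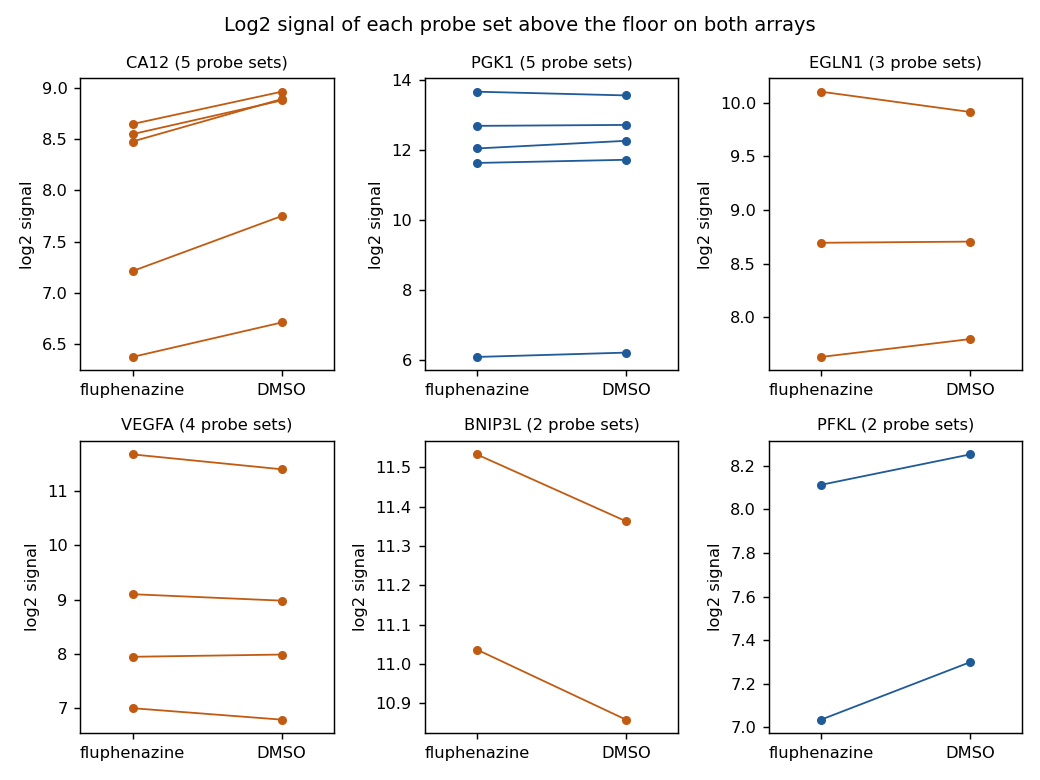
Log2 signal of each probe set above the floor with fluphenazine (left) and with DMSO (right), with a line joining the values of 1 probe set, for 6 genes chosen after their values were seen. All 5 lines of CA12 climb towards DMSO and both lines of BNIP3L fall towards DMSO, whereas the lines of PGK1, EGLN1 and VEGFA do not all run the same way.

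BNIP3 and BNIP3L, the related receptors that mark mitochondria for autophagy in low oxygen, differed in how well their probe sets agreed. BNIP3L had 11.53 and 11.04 with fluphenazine, against 11.36 and 10.86 with DMSO, so both of its probe sets were higher, by 0.17 and 0.18. BNIP3 had 12.03 with fluphenazine and 11.97 with DMSO (0.06), and its second probe set gave -0.11. BNIP3L was therefore higher by either probe set, and BNIP3 had no settled direction.

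The secreted factors were slightly higher. VEGFA, the main angiogenic growth factor, had 11.68 with fluphenazine and 11.40 with DMSO, the largest positive difference of the set at 0.27 or 1.21-fold. Its other 3 probe sets gave 0.21, 0.12 and -0.04. ADM, the vasodilator peptide adrenomedullin, had 11.44 with fluphenazine and 11.26 with DMSO (0.18), read by 1 probe set. For comparison, 4.34% of all genes above the floor had a difference at least as high as that of VEGFA, and 10.8% one at least as high as that of ADM.

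HIF1A itself had 12.31 with fluphenazine and 12.16 with DMSO (0.14). HIF-1 activity is set mainly by the stability of this protein, which the arrays do not measure. EGLN1, the main prolyl hydroxylase that marks it, had 10.10 with fluphenazine and 9.91 with DMSO (0.19), but its other 2 probe sets above the floor gave -0.01 and -0.17. A further EGLN1 probe set lay under the floor at 4.10 with fluphenazine and 3.43 with DMSO (0.67), the largest probe set difference of the set. EGLN3, the hydroxylase most strongly induced by hypoxia, lay under the floor at 5.54 with fluphenazine and 5.95 with DMSO. Its difference of -0.41 was the largest in size by gene, and its second probe set gave -0.10.

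The remaining hypoxia-inducible genes lay close to 0 or slightly above. P4HA1, the catalytic subunit of the enzyme that hydroxylates collagen, had 11.80 with fluphenazine and 11.62 with DMSO (0.17), and its paralogue P4HA2 had 10.21 with fluphenazine and 10.16 with DMSO (0.05), with 0.13 by a second probe set. ANKRD37, a small ankyrin protein gene, differed by 0.13, and its second probe set, under the floor, by -0.28. NDRG1, a stress-responsive gene strongly induced by hypoxia, had 13.90 with fluphenazine and 13.84 with DMSO (0.07). KDM3A, a histone demethylase, differed by 0.04 and MXI1, an antagonist of MYC, by -0.01. Over all 29 probe sets of the other hypoxia-inducible genes above the floor, 16 were higher (55.2%) and 13 lower. Of all probe sets above the floor, 47.2% were higher. Of the 13 lower ones of these genes, 5 belong to CA12.

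Across the set, 13 genes had at least 2 probe sets above the floor, and in 7 of them (53.8%) all had the same sign. That share was 56.7% over 3668 genes. The 7 genes were BNIP3L and P4HA2, which were higher, and ALDOA, CA12, ENO1, PFKL and TPI1, which were lower. A further 14 genes of the set were read by a single probe set. Directions of those genes have no second reading on these arrays.

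Further genes of the same pathways, from lists that overlap the set in no gene, were examined for the same comparison. Of 22 other genes of glycolysis, glucose transport and pyruvate entry above the floor, 11 were higher and 11 lower, with a median of 0.00. PDP1, the phosphatase that reactivates pyruvate dehydrogenase, had 11.16 with fluphenazine and 10.61 with DMSO (0.55), and its second probe set gave 0.28. PFKFB2, the heart isozyme of the PFKFB family, differed by 0.34, unlike PFKFB3 and PFKFB4, although its 4 probe sets ranged from -0.20 to 0.34. MPC1, a subunit of the mitochondrial pyruvate carrier, differed by 0.14. On the other side BSG, the chaperone of lactate transporters, differed by -0.23, the intracellular transporter SLC2A8 by -0.22 (0.15 by its other probe set) and PDK2 by -0.13.

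In a longer list of HIF targets the directions were close to evenly split. Of 36 further HIF targets above the floor, 17 were higher (47.2%) and 19 lower, with a median of -0.01, 3 were higher by 0.32 or more (2.69% of all genes) and 0 were lower by that much (2.58%). The scaffold protein gene AKAP12 had 11.76 with fluphenazine and 11.39 with DMSO (0.37), and its 5 probe sets were all higher, by up to 0.58. STC2, a secreted glycoprotein, differed by 0.34 and 0.46 in its 2 probe sets, and PFKFB2 is on this list too. The largest negative differences were those of PLOD1, a lysyl hydroxylase, at -0.26, the creatine transporter SLC6A8 at -0.24 and RASSF4 at -0.24, whose value with fluphenazine, 5.99, lay under the floor.

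Among subunits and regulators of HIF, 7 of 13 above the floor were higher (53.8%), with a median of 0.05. Over all genes above the floor, 48.2% were higher and the median was -0.01. The coactivator gene CREBBP differed by 0.35, though its 4 probe sets ranged from -0.17 to 0.35, and its paralogue EP300 by -0.11, with 0.38 by its other probe set. HIF1AN, the asparaginyl hydroxylase that inhibits HIF, differed by 0.14 and the ubiquitin ligase SIAH2 by 0.12. ELOB and RBX1, parts of the VHL ligase, both differed by -0.13, with 0.00 by the other probe set of ELOB.

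Neighbouring routes of carbon metabolism had medians slightly below 0, as did the glycolytic enzymes. Of all genes above the floor, 51.8% were lower. In the citric acid cycle 11 of 14 genes were lower, with a median of -0.09, led by SDHA of succinate dehydrogenase at -0.32, SDHC at -0.21 and IDH3G at -0.19. The 3 higher genes were SUCLG2 at 0.30, SUCLA2 at 0.02 and IDH3A at 0.01. Probe sets of one gene disagreed in sign for several of these, with ranges of -0.21 to 0.38 for SDHC, -0.19 to 0.08 for IDH3G, -0.14 to 0.30 for SUCLG2 and -0.11 to 0.44 for IDH3A. In the pentose phosphate pathway 4 of 6 genes were lower, with a median of -0.10, led by the transketolase gene TKT at -0.27 and the transaldolase gene TALDO1 at -0.19. The glycolytic median of -0.03 lay between these medians and that of all genes.

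**Figure D4:**
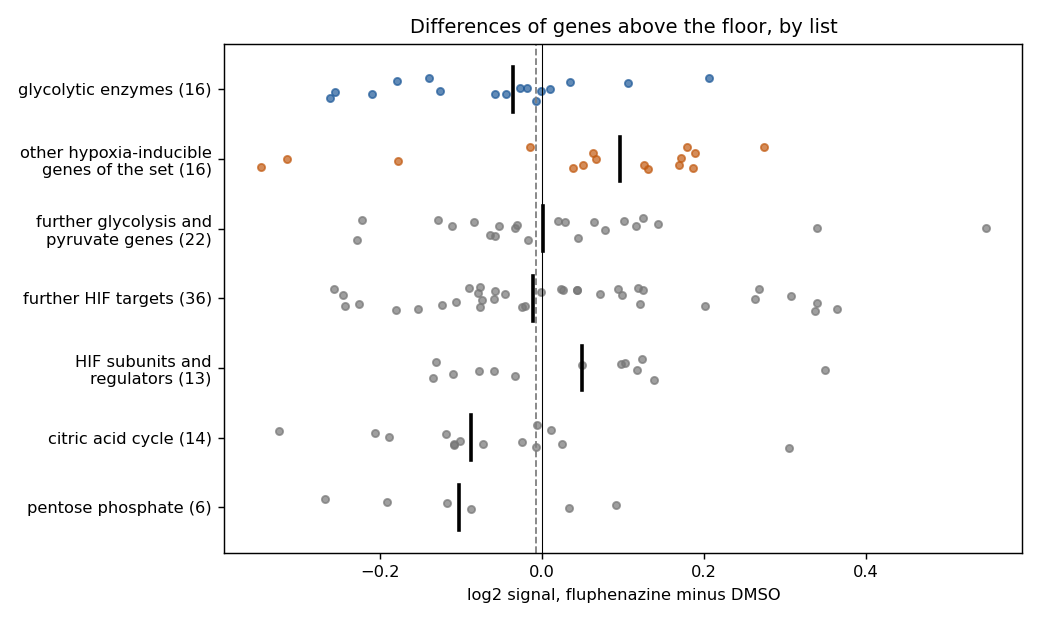
Each point is 1 gene above the floor, placed by its log2 difference, fluphenazine minus DMSO, with the number of genes in brackets, black bars for the medians and a dashed line at -0.01, the median of all genes above the floor. The medians run from -0.10 in the pentose phosphate pathway to 0.10 in the other hypoxia-inducible genes of the set, and the 36 further HIF targets have a median of -0.01.

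All 24 bacterial poly-A spike-in probe sets, which report labelling, were lower with fluphenazine, with a median difference of -0.22. Of 18 hybridization control probe sets, 14 were lower, with a median of -0.07 and a range of -0.19 to 0.03. The shift of the spike-ins is larger in size than any group median given here. The part of either shift in those medians was not tested. Of 13 markers listed for a prostate epithelial line 9 were measured, and 8 of them, among them KRT8, KRT18, EPCAM and CDH1, were above the floor, 4 higher and 4 lower, with FOLH1 under it. Of these KRT8 had 9.28 with fluphenazine and 9.70 with DMSO (-0.42), and VIM, which encodes vimentin, had 8.26 with fluphenazine and 8.74 with DMSO (-0.48), both past the limit of 0.32, and their part in the other results was not tested. Of the markers of blood, endothelial and stromal cells, 12 of 14 measured were under the floor, the exceptions being PECAM1 and COL1A1. PECAM1 had 8.49 with fluphenazine and 8.76 with DMSO, and its 4 probe sets were all lower, at -0.55 to -0.26. COL1A1 had 8.33 with fluphenazine and 8.33 with DMSO. KLK3, which encodes the prostate-specific antigen that PC3 cells are known to make little of, was above this rank floor at 6.90 with fluphenazine and 6.93 with DMSO.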

How the data were processed

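The authors deposited 1 log2 signal per probe set and array, a unit judged from the range of the values (1.60 to 14.28). The submitters' processing notes name RMA, Transcriptome Analysis Console 3.1 and Affymetrix Expression Console 1.4, and do not say which step each did. The sorted columns differed by at most 0.13, so a difference is relative to the other genes on the array. A platform annotation of 2016 named exactly 1 gene for 37151 probe sets, control probe sets were kept apart, and symbols were updated through the gene identifier. The difference, fluphenazine minus DMSO, was computed per probe set and per gene, with Python 3.11.15, numpy 2.4.6 and pandas 2.3.3. Quantile normalization used limma 3.58.1 in R 4.3.3. The gene collapse and counts were tested on simulated data. Promoter sequences are RefSeq's, GRCh38.p14.

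The labels give 1 culture per treatment, so no test was run and the number of arrays limits the precision. The members and lists were chosen with earlier results of these data known. Every member is accounted for, and of each further list the text names, among genes above the floor, up to 3 of the highest positive and up to 3 of the lowest negative differences. Alternatives were 3 other scalings, 3 other rules for probe sets, 2 other floors, 2 other fold limits and small changes of membership.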

Additional observations from a re-analysis of the deposited data

How the results depend on the processing

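Both group medians and the difference between them kept their sign under the alternatives run, and no member reached 1.5-fold or 2-fold under any of them. At the lower limit of 0.32, 1 member was lower. Averaging the probe sets of a gene put the median of the other hypoxia-inducible genes at 0.012 and the difference of the medians at -0.042, and the median over probe sets put them at 0.013 and -0.069. Both rules include dim probe sets and left 8 of the 16 others higher. With the median over probe sets above the floor, an alternative chosen after seeing the data, the medians were -0.075 for the enzymes and 0.062 for the others. At least 1 of the first 2 rules turned the direction of 8 of 33 members, namely HK2, PFKP, PGK1, ENO1, SLC2A1, PDK1, BNIP3 and ANKRD37. Scalings moved no member by more than 0.02, which turned GAPDH, PGAM1, LDHA and MXI1, and centring on the 75th percentile left 7 enzymes higher. Counting the GAPDH control probe sets, also added afterwards, left 5 enzymes higher. The absence of replicates limits every value, and signal limits those read by dim probe sets.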

Other observations

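Of the 36 further HIF targets above the floor, 26 had at least 2 probe sets, dim ones included, and these genes were examined after their values were seen. In 9 of them all probe sets were higher with fluphenazine, in 5 all were lower, and in 12 they disagreed. The share of all genes whose probe sets agreed was not computed with dim ones included. With probe sets above the floor only, it was 56.7% over 3668 genes, so the split is not read as particular to HIF targets. The 9 were AKAP12, BHLHE40, CAV1, CITED2, ERO1A, IGFBP3, KDM4C, PLOD2 and STC2. Among them BHLHE40, a transcriptional repressor of the circadian clock, had 12.02 log2 signal with fluphenazine and 11.71 with DMSO (0.31). PLOD2, which hydroxylates lysines of collagen, had 11.98 with fluphenazine and 11.71 with DMSO (0.27). The 5 lower genes were AK4, FAM162A, HILPDA, SLC6A8 and STC1. FAM162A had 12.35 with fluphenazine and 12.44 with DMSO, with its 5 probe sets between -0.46 and -0.07. The 4 probe sets of AK4, an adenylate kinase of mitochondria, lay between -0.41 and -0.06. STC1 and STC2, related secreted glycoproteins, thus lay on opposite sides, with the 3 probe sets of STC1 between -0.40 and -0.23.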
